A study of Homo sapiens with 24 samples.

Results

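A549 is a human epithelial cell line grown from a lung adenocarcinoma. Its cells were cultured in a conditioned medium that the labels call only CAF, an abbreviation usually read as cancer-associated fibroblast, and polyadenylated RNA was sequenced after 3, 6, 12, 24, 48 and 72 h. The 6 CAF medium mRNA libraries, of 24 libraries in the series, are the subject here: the 3 late libraries (24, 48 and 72 h) were set against the 3 early ones (3, 6 and 12 h), and the order of the 6 times was followed. The 6 libraries of A549 cells in control medium at the same times, 1 library each, were used for comparison. No library of untreated cells at time 0 was used here. Of 22026 genes in the table, the 12114 with a mean of at least 1 RPKM (sequencing reads corrected for gene length and for library depth) over the 6 libraries were tested. Just inside this filter lay GFOD1 (mean 1 RPKM, from 0.78 to 1.42), and just outside it TRAF3IP2-AS1 (mean 0.998 RPKM, from 0.72 to 1.21). Each time was measured in 1 library. The design text mentions 2 biological replicates for each sample, but the values hold them as 1 column, so the 3 times of a period stood in as replicates. The p-values therefore measure only the spread between these libraries, which also holds the change with time inside each period.

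As background, fibroblast medium carries growth factors, cytokines and matrix proteins that act on carcinoma cells through receptors such as those for IL-6 family cytokines and TGF-beta. In dividing cells, E2F factors switch on genes for DNA replication, and the B-MYB and FOXM1 factors later switch on genes for mitosis. NF-kB is a family of transcription factors that is held in the cytoplasm by inhibitors of the IkB type and, once released, switches on cytokines, chemokines and its own inhibitors. Cells that leave the cell cycle lower both the replication and the mitosis genes.

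The libraries held 26.5 to 29.3 M reads early and 33.9 to 40.6 M late, so that depth separated the periods completely, and depth and period cannot be told apart. Between 13.3 and 19.2% of the summed RPKM belonged to the top 10 genes of a library. Across the tested genes the log2 levels of the early libraries correlated with each other at r = 0.969 to 0.985, and those of 48 and 72 h at r = 0.979. The 24 h library correlated with the early ones at r = 0.968 to 0.981 and with 48 and 72 h at r = 0.966 and 0.969, whereas early against 48 or 72 h gave r = 0.923 to 0.941. These correlations are across genes, which are not independent. The epithelial keratin KRT8 measured 1265 to 2357 RPKM in the 6 libraries. Of the alveolar type 2 markers, SFTPC was at most 0.18, SFTPB at most 0.07 and NKX2-1 at most 0.03 RPKM, whereas ABCA3 measured 4.92 to 8.91. KRT8 was thus abundant and the surfactant genes SFTPC and SFTPB were near 0. Of the fibroblast markers, the collagens COL1A2 and COL3A1 did not exceed 0.12 and 0.11 RPKM, but the collagen COL1A1 measured 2.6 to 5.81. FBN1 and FAP reached 5.36 and 4.71 RPKM, and 6 of the 11 markers reached 1 RPKM in at least 1 library. The summed level of the 11 fibroblast markers was 11.3 to 13.3 RPKM early and 13.6 to 17.4 late. The leukocyte gene PTPRC was at most 0.04 RPKM, and the sum of 11 leukocyte and endothelial markers was 14.6 to 20.4 RPKM early and 21 to 32.9 late, nearly all of it the lysosomal protein gene CD68. None of the markers was at 0 in all 6 libraries. In bulk RNA, fewer cells of a type and less RNA per cell cannot be told apart.

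Between the periods 705 genes rose (5.82% of 12114) and 387 fell (3.19%), 1092 in all (9.01%), by limma on log2(RPKM + 0.5) with Benjamini-Hochberg adjustment over all tested genes. Rises and falls were ranked among called genes with models of at least 400 bases and no overlap between late and early values. The 5 largest rises were those of TXNIP, PIP, IL8, PTGS2 and CALY, and the 5 largest falls those of MYBL2, NCAPG, CLSPN, TUBA1B and RRM2. A difference of at least 2-fold was reached by 323 of the genes that rose and 227 of those that fell. Late and early values did not overlap for 705 of 705 and 385 of 387 of them, against 22.8% of all tested genes with no overlap upward and 11% downward. The median difference over all tested genes was 0.08 on the log2 scale. The split between rises and falls depended on scaling: 64.6% of the calls were rises in the RPKM as deposited, 42.4% after median centring (456 rose and 619 fell), 45.3% after quantile normalization and 78.8% after rescaling to the same sum. The direction of the 1092 called genes was kept under these 3 scalings. The count also rested on single libraries. Without the 48 h library 0 genes passed (limma, smallest adjusted p = 0.0824, 2382 genes at an unadjusted p under 0.05), without the 3 h library 2, without 72 h 88, without 6 h 143 and without 12 h 246. Without the 24 h library, which lay between the early and the later ones, 2167 passed.

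Of the lists counted, mitosis had the largest share of falls. Of 30 mitosis genes tested, 24 fell (80.0%, against 3.19% of all tested genes) and 0 rose. The median difference of the list was -1.50 on the log2 scale beside 0.08 over all genes. Late values lay below early ones without overlap in 30 of 30, against 11% of all tested genes. Without the 24 h library 30 of 30 passed, without 6 or 72 h 1 each, and without 3, 12 or 48 h 0. The list and its members were chosen with earlier results of these libraries known. MYBL2 encodes B-MYB, a factor that acts at mitotic promoters. Among called genes with models of at least 400 bases and no overlap between periods, it had the largest fall. Its level was 59.2, 47.8 and 53.1 RPKM at 3, 6 and 12 h and 22.8, 5.03 and 3.77 RPKM at 24, 48 and 72 h. The 3 early values were close together, the 24 h value lay between, and the last 2 were far below. The log2 difference was -2.71 ± 0.50 (SE, limma adjusted p = 0.0204). FOXM1, the forkhead factor of the same programme, measured 17.1, 13.7 and 10.3 RPKM early and 8.09, 2.76 and 2.10 late (log2 -1.73, limma adjusted p = 0.0271). It was named after its values were seen.

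The mitotic genes that fell included those of kinetochores, the spindle and cytokinesis. NCAPG, a subunit of condensin, and SPC25, of the kinetochore, fell too but were not members of the mitosis list. NCAPG measured 18.1, 18.6 and 17.2 RPKM early and 8.81, 2.55 and 1.84 late (log2 -2.19 ± 0.41, limma adjusted p = 0.0209). NDC80, which joins kinetochores to microtubules, measured 18.4, 19.6 and 23.9 RPKM early and 9.31, 4.38 and 3.25 late (log2 -1.90 ± 0.31, limma adjusted p = 0.0149), and SPC25, of the same NDC80 complex, fell by 2.01 on the log2 scale. Both genes kept a level pattern up to 12 h and had lost most of it by 48 h. The kinesin gene KIF20A, needed to divide the cytoplasm, measured 25.2, 24.4 and 26.5 RPKM early and 14.8, 6.26 and 3.94 late (log2 -1.74 ± 0.36, limma adjusted p = 0.0240). BIRC5, which encodes survivin of the chromosomal passenger complex, measured 52.3, 44.7 and 49.8 RPKM early and 30.1, 10.5 and 6.39 late (log2 -1.90 ± 0.43, limma adjusted p = 0.0283). MKI67, which encodes the Ki-67 antigen used to count cycling cells, measured 55.1, 45.5 and 54.3 RPKM early and 29.6, 11.8 and 8.68 late (log2 -1.79 ± 0.36, limma adjusted p = 0.0234). In each of these genes the lowest early value was above the highest late one, as in 385 of the 387 fallen genes. This separation followed from how the genes were chosen. The 6 members of the list that missed the threshold were CDK1, AURKA, BUB1, TTK, CDC20 and DLGAP5, with log2 differences from -0.97 to -1.51 and limma adjusted p from 0.0510 to 0.0662.

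The tubulin genes TUBA1B and TUBA1A, which encode the alpha chains of microtubules, measured 110.3, 110.4 and 124.7 RPKM early and 43.8, 18.4 and 22.5 late, and 51.1, 80.2 and 79.9 RPKM early and 18.7, 13.98 and 20.4 late. Their log2 differences were -2.10 ± 0.28 and -1.95 ± 0.22 (limma adjusted p = 0.0131 each). TUBA1A was near its late level already at 24 h, and TUBA1B lay between its early and later values then. The 2 genes are near-identical in their coding parts, so reads may be split between them. SHCBP1, whose product works at the midbody, fell by 2.03 on the log2 scale (limma adjusted p = 0.0247).

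The promoters of the mitosis genes are shown because 2 short motifs recur in them. RefSeq promoter sequences (GRCh38.p14, a later build than that of the expression table, matched by gene symbol) were found for 24 of the 30 genes. In the 250 bases before the gene start, and on both strands, the CHR motif TTTGAA occurred in 13 of 24 genes (54.2%) beside 16.1% of 27305 genes, and CCAAT in 19 of 24 (79.2%) beside 37.0%. Both occurred together in 12 of 24 (50.0%) beside 5.79%. The 27305 are all genes with a RefSeq promoter and not only the tested ones. Shares among the tested genes were not counted and may differ. As background, the CHR element binds the DREAM and B-MYB complexes, and CCAAT binds NF-Y. A match describes letters only and is no evidence of a bound site here. The last 120 bases before the start follow, 5′ to 3′ on the gene's own strand, with both motifs or their reverse complements in capitals, and in these windows the motifs do not overlap. CCNB2, PLK1 and ASPM were picked for holding both motifs and KIF20A for holding CCAAT alone. Their windows lie at chr15:59105026-59105145 (plus strand), chr16:23678769-23678888 (plus), chr1:197146670-197146789 (minus) and chr5:138178992-138179111 (plus).
CCNB2: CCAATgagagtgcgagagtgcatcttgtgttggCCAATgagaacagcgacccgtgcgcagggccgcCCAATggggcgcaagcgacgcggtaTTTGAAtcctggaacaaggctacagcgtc
PLK1: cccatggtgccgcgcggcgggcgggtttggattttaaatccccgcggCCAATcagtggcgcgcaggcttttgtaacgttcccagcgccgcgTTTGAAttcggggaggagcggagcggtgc
ASPM: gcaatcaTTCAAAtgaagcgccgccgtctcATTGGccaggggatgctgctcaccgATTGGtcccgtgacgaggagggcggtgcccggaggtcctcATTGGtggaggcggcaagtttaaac
KIF20A: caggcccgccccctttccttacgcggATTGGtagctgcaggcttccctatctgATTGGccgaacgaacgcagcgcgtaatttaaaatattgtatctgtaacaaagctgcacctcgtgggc
In CCNB2 and PLK1 the CHR letters stand at -29 to -24 from the start, with the nearest CCAAT at -54 to -50 and -73 to -69. CCNB2, cyclin B2, measured 38.0, 34.6 and 39.4 RPKM early and 28.3, 12.7 and 7.07 late (log2 -1.41, limma adjusted p = 0.0486), and PLK1, a mitotic kinase, 29.3, 25.7 and 28.4 early and 18.8, 8.33 and 4.28 late (log2 -1.60, limma adjusted p = 0.0368). ASPM, a spindle pole protein, measured 19.2, 18.1 and 16.3 RPKM early and 10.6, 4.57 and 3.41 late (log2 -1.60, limma adjusted p = 0.0230). KIF20A, with no TTTGAA in its 250 bases, had a difference of similar size.

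Genes of DNA replication also fell. Of 28 tested, 16 fell (57.1%, against 3.19% of all tested genes) and 0 rose, with a median of -1.27 on the log2 scale, and 24 fell when the 24 h library was left out and 0 when any other was. RRM2, the small subunit of ribonucleotide reductase, which makes the building blocks of DNA, measured 38.8, 38.0 and 21.8 RPKM early and 16.7, 6.57 and 3.23 late (log2 -2.07 ± 0.46, limma adjusted p = 0.0271). Its values went down at every step. C2orf48, a symbol that RefSeq lists as an older name at the RRM2 locus, measured 34.2, 40.3 and 35.03 early and 17.7, 6.51 and 5.04 late and is not an independent member. CDC45, a part of the replicative helicase, measured 19.3, 17.5 and 13.8 RPKM early and 9.72, 2.47 and 2.03 late (log2 -2.02 ± 0.44, limma adjusted p = 0.0257), and also went down at every step. GINS2, of the same helicase, measured 11.1, 8.82 and 6.97 RPKM early and 5.35, 1.73 and 1.02 late (log2 -1.78 ± 0.41, limma adjusted p = 0.0297). TK1, thymidine kinase, measured 25.5, 22.2 and 26.1 RPKM early and 14.7, 4.66 and 3.21 late (log2 -1.92 ± 0.42, limma adjusted p = 0.0258). CLSPN, the checkpoint adaptor claspin, measured 13, 10.5 and 13.1 RPKM early and 6.46, 1.18 and 1.35 late (log2 -2.18 ± 0.45, limma adjusted p = 0.0239).

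Some members of the replication list did not pass the test. PCNA, the sliding clamp, measured 162, 151 and 137 RPKM early and 139, 109 and 95.8 late (log2 -0.40, limma adjusted p = 0.174). Against their 3 h level the replication genes had a median log2 of -0.20 at 6 h and -0.47 at 12 h, while the mitosis genes stood at -0.05 and -0.06. At 24 h the medians were -0.73 and -0.66, at 48 h -2.05 and -1.71, and at 72 h -1.94 and -2.33. E2F motifs were searched as GCGCGAAA or GGCGGGAA on both strands. They occurred in 10 of the 24 replication genes with a promoter (41.7%), beside 3.82% of the 27305 genes with one. Replication-dependent histones of the HIST clusters are poorly captured by polyadenylation, and 9 of 54 were tested, with a median log2 of -0.64. Of them HIST1H2AM fell, from 2.38, 2.72 and 3.47 RPKM to 1.45, 0.11 and 0.10 (log2 -1.90, limma adjusted p = 0.0252).

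NF-kB targets and cytokines rose. Of 18 tested, 10 rose (55.6%, against 5.82% of all tested genes) and 0 fell, with a median of 1.10 on the log2 scale, and the difference was positive in 18 of 18. Without 24 h 13 passed, without 12, 6 and 72 h 5, 4 and 3, and without 3 or 48 h 0. IL8 (the older symbol of CXCL8), which attracts neutrophils, measured 21.8, 30.2 and 21.4 RPKM early and 79.1, 305 and 173 late, with its highest level at 48 h. The log2 difference was 2.71 ± 0.40 (SE, limma adjusted p = 0.0131). IL6, a cytokine that signals through STAT3, measured 0.23, 0.80 and 0.99 RPKM early and 3.78, 8.93 and 6.49 late (log2 2.55 ± 0.33, limma adjusted p = 0.0131). Its lowest value stood for about 15.0 reads. SOD2, the mitochondrial superoxide dismutase, measured 56.8, 47.8 and 29.2 RPKM early and 88.0, 198 and 231 late (log2 1.88 ± 0.36, limma adjusted p = 0.0210). Before the late rise it was lowest at 12 h. TNFAIP3, which encodes the NF-kB inhibitor A20, had the same shape, with 5.45, 4.02 and 2.70 RPKM early and 9.67, 19.5 and 19.1 late (log2 1.84 ± 0.30, limma adjusted p = 0.0148).

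The other 6 risen members were 2 chemokines, 2 NF-kB subunits, an inhibitor and TNFAIP2, with log2 differences from 0.91 to 1.35. The chemokine CXCL1 measured 102, 107 and 86.8 RPKM early and 164, 183 and 259 late (log2 1.01, limma adjusted p = 0.0228). NFKBIA, the inhibitor IkB-alpha, measured 45.3, 51.7 and 61.5 RPKM early and 80.8, 107 and 112 late (log2 0.91, limma adjusted p = 0.0240), so that targets and inhibitors moved up together. The NF-kB subunit genes NFKB2 and RELB rose by 1.35 and 1.29 on the log2 scale (limma adjusted p = 0.0271 and 0.0163). These 4 genes fall outside the naming rule and were chosen after their values were seen. Among the members that missed the threshold, CSF2, a myeloid growth factor, measured 0.17, 1.30 and 0.19 RPKM early and 0.38, 3.78 and 0.82 late. The chemokine CCL20 measured 0.08, 0.00 and 0.22 early and 0.18, 4.75 and 0.99 late (limma adjusted p = 0.342 and 0.114). Both were highest at 48 h. BIRC3 missed it with high values at both 48 and 72 h (49.3 and 55.2 RPKM, limma adjusted p = 0.0563). The rest were LIF, CXCL2, CCL2, NFKB1 and CXCL5, with log2 differences of 0.91, 0.62, 0.58, 0.57 and 0.43. IL1B, one of the 6 listed genes below the filter, measured 0.02, 0.10 and 0.00 RPKM early and 0.45, 0.93 and 1.26 late.

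Promoters of this list are shown because of the NF-kB letters GGNNTTTCC, searched on either strand in 250 bases. They occurred in 13 of the 15 genes with a RefSeq promoter (86.7%), beside 6.69% of the 27305 genes with one. This spelling was chosen with such sites in these promoters known. The windows of 120 bases before the start are those of CXCL8 (chr4:73740449-73740568), IL6 (chr7:22727080-22727199), CXCL1 (chr4:73869273-73869392) and TNFAIP3 (chr6:137867139-137867258), each on the plus strand of GRCh38.p14, with the motif or its reverse complement in capitals.
CXCL8: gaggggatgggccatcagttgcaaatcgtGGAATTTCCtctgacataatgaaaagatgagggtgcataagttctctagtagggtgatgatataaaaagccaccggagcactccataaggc
IL6: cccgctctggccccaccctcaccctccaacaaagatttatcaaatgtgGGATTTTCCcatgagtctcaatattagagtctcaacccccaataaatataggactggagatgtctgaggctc
CXCL1: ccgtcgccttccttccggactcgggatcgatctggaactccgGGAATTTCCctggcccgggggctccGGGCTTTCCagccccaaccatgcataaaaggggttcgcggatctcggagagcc
TNFAIP3: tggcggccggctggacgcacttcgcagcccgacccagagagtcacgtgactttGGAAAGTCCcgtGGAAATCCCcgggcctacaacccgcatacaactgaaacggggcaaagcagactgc
The letters stand at -91 to -83 in CXCL8 and at -72 to -64 in IL6. CXCL1 holds them at -78 to -70 and at -53 to -45, and TNFAIP3 at -67 to -59 and at -55 to -47. SOD2 holds none in the 250 bases before any of its 4 listed starts, which says only that the letters are not in that window.

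Enzymes at successive steps of prostaglandin synthesis rose. Of 8 genes tested, 4 rose (50.0%, against 5.82%) and 0 fell, with a median of 0.56 on the log2 scale. PLA2G4A, the phospholipase that frees arachidonic acid, measured 12.6, 15.6 and 12.3 RPKM early and 30.9, 43.4 and 47.4 late (log2 1.54 ± 0.20, limma adjusted p = 0.0131). PTGS2, the inducible cyclooxygenase, measured 4.43, 4.78 and 2.71 RPKM early and 11.2, 51.7 and 37.4 late (log2 2.70 ± 0.46, limma adjusted p = 0.0158). PTGES, the inducible prostaglandin E synthase, measured 22.1, 21.5 and 18.9 RPKM early and 30.1, 46.2 and 47.8 late (log2 0.95 ± 0.20, limma adjusted p = 0.0247). PLA2G4A had most of its difference by 24 h, while PTGS2 had its largest step between 24 and 48 h. The receptor gene PTGER2 measured 0.61, 1.36 and 1.27 RPKM early and 2.94, 5.01 and 2.58 late (log2 1.33, limma adjusted p = 0.0240). HPGD, which breaks prostaglandins down, measured 26.4, 38.7 and 33.5 RPKM early and 45.5, 36.9 and 29.0 late (log2 0.17, limma adjusted p = 0.646), and the isomerase genes PTGES2 and PTGES3 had log2 differences of -0.10 and -0.11.

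Of 17 STAT3 and acute phase genes 3 rose (17.6%, against 5.82% of all tested genes) and 0 fell, with a median log2 of 0.66. SAA2, an acute phase apolipoprotein, measured 3.19, 3.79 and 5.35 RPKM early and 11.9, 17.5 and 18.9 late, rising at every step (log2 1.85 ± 0.23, limma adjusted p = 0.0131). SAA2-SAA4, a read-through model of the same locus, rose by 2.05 on the log2 scale and shares its reads. The protease inhibitor SERPINA3 and the repressor BCL6 rose by 1.42 and 1.39 on the log2 scale (limma adjusted p = 0.0244 and 0.0326). Of 21 interferon response genes 4 rose (19.0%, against 5.82%) and 0 fell (median log2 0.28). The members were mixed in sign. Most were positive, but IFIT1, HERC6, OAS3 and ISG15 had log2 differences of -0.52, -0.49, -0.36 and -0.32, none past the test. BST2, which encodes the virus-trapping protein tetherin, measured 0.25, 0.16 and 0.51 RPKM early and 2.10, 3.75 and 8.31 late (log2 2.54 ± 0.38, limma adjusted p = 0.0131), and the RNA sensor IFIH1, the factor IRF1 and the ligase HERC5 rose by 1.18, 1.04 and 0.98 on the log2 scale. IFITM1, another interferon-induced membrane protein gene, rose from 0.24, 0.26 and 0.36 RPKM to 1.23, 3.51 and 4.46 (log2 2.05 ± 0.35, limma adjusted p = 0.0157). Of 17 MAPK feedback genes 3 rose (17.6%, against 5.82%) and 0 fell (median log2 0.70): PHLDA1, the phosphatase DUSP4 and the inhibitor SPRY1, by 1.90, 1.31 and 1.11 on the log2 scale. DUSP4 measured 17.6, 43.8 and 35.7 RPKM early and 58.6, 100.3 and 73.4 late. Of the 12 immediate early genes 0 passed in either direction, with 11 of 12 positive and a median of 0.38.

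**Figure D1:**
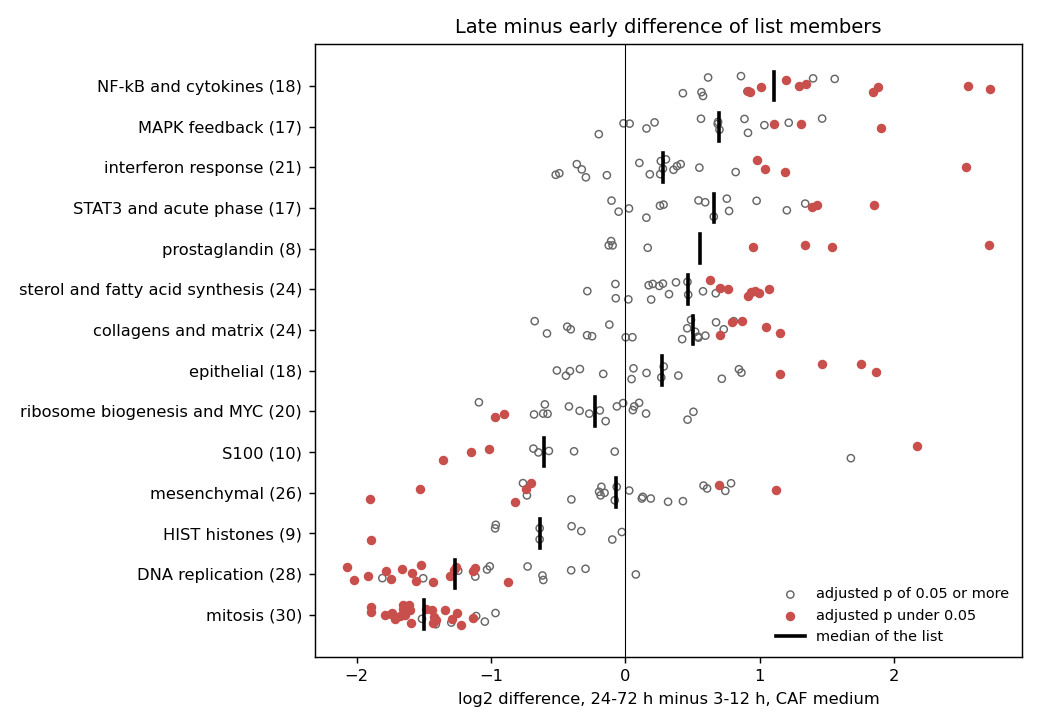
Late minus early log2 difference in CAF medium (horizontal axis) of every tested member of 14 gene lists (rows, with the number of tested genes). Filled points passed the limma test at an adjusted p under 0.05, open points did not, and vertical bars are list medians. The points of the mitosis list lie between -1.90 and -0.97, and the NF-kB points between 0.43 and 2.71.

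TXNIP had the largest rise among called genes with models of at least 400 bases and no overlap between periods. It encodes thioredoxin-interacting protein, an arrestin that lowers glucose uptake and is switched on by the glucose-sensing factor MondoA. It measured 2.12, 2.94 and 3.70 RPKM early and 11.8, 56.1 and 42.04 late (log2 3.20 ± 0.47, limma adjusted p = 0.0131). Its relative ARRDC4, also a MondoA target, measured 2.42, 2.35 and 1.69 RPKM early and 5.68, 13.6 and 10.9 late (log2 1.92 ± 0.28, limma adjusted p = 0.0131). Both were lowest in the early libraries and highest at 48 h. In the list of CDK inhibitors and quiescence genes, which holds them, 4 of 17 rose (23.5%, against 5.82%) and 0 fell (median log2 0.65). The others were CDKN1C, the inhibitor p57, with 0.96, 2.35 and 1.96 RPKM early and 3.67, 5.57 and 4.03 late (log2 1.16, limma adjusted p = 0.0285), and RBL2, which encodes p130 of the DREAM complex (log2 0.81, limma adjusted p = 0.0278). Of 18 p53 targets 11.1% rose (RRM2B and ZMAT3, log2 0.88 and 0.74) and 5.56% fell (TP53I3, log2 -1.47), against 5.82 and 3.19% of all tested genes, with a median of 0.05 that was -0.03 after median centring.

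The other large rises belonged to no list. PIP, a secreted protein of glands, measured 0.53, 0.92 and 1.02 RPKM early and 4.20, 10.1 and 20.7 late, rising at every step (log2 2.97 ± 0.44, limma adjusted p = 0.0131). SUSD2, a membrane protein with sushi domains, measured 9.99, 18.8 and 21.1 RPKM early and 53.9, 111 and 107 late (log2 2.41 ± 0.33, limma adjusted p = 0.0131). TNNI3, the cardiac form of troponin I, measured 1.40, 2.08 and 3.57 RPKM early and 5.25, 13.7 and 19.6 late (log2 2.12 ± 0.42, limma adjusted p = 0.0225). These 3 genes had separated from their early range by 24 h, which the naming rule required, and PIP and TNNI3 were still rising at 72 h. FBXO2, a ubiquitin ligase subunit that binds glycoproteins, measured 0.54, 1.04 and 1.38 RPKM early and 4.02, 5.51 and 7.57 late (log2 2.06 ± 0.27, limma adjusted p = 0.0131). CALY, a protein of clathrin-coated vesicles, rose from 0.07, 0.38 and 0.90 RPKM to 2.25, 7.06 and 7.14 (log2 2.61 ± 0.42, limma adjusted p = 0.0149), and MAP1LC3B2 by 2.29 on the log2 scale. MAP1LC3B2 is a near-identical copy of MAP1LC3B, so its reads are uncertain. In all, 103 of the 705 risen genes had an early mean under 1 RPKM, where the added 0.5 makes the log2 difference too small.

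The series title concerns epithelial-mesenchymal transition, the switch from a joined epithelial sheet to single migrating cells. Of 18 epithelial genes tested, 4 rose (22.2%, against 5.82%) and 0 fell (median log2 0.28). CDH1, the E-cadherin of adherens junctions, measured 6.40, 7.97 and 8.63 RPKM early and 13.5, 19.2 and 40.04 late, rising at every step (log2 1.46 ± 0.33, limma adjusted p = 0.0277). EPCAM, an epithelial adhesion molecule, measured 0.66, 0.92 and 1.32 RPKM early and 3.17, 3.98 and 6.46 late, also rising at every step (log2 1.75 ± 0.26, limma adjusted p = 0.0131). TJP3, the tight junction scaffold ZO-3, measured 0.46, 0.50 and 0.81 RPKM early and 1.73, 4.38 and 5.07 late (log2 1.86 ± 0.32, limma adjusted p = 0.0163). All 3 had no overlap between periods, as had all 705 called rises, so this adds nothing to their calls. CLDN2, a claudin that forms pores, rose by 1.15 on the log2 scale (limma adjusted p = 0.0265), while CLDN1 measured 4.55, 4.42 and 3.69 RPKM early and 6.10, 11.8 and 6.90 late (log2 0.84, limma adjusted p = 0.0513). The keratins KRT7, KRT8 and KRT18 had log2 differences of -0.44, -0.41 and -0.17, none past the test.

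Of 26 mesenchymal genes 5 fell (19.2%, against 3.19%) and 2 rose (7.69%, against 5.82%), with a median log2 of -0.07 (0.03 after rescaling to the same sum). The fallen genes were mostly those of the contractile actin cytoskeleton, but the smooth muscle actin gene ACTA2 did not fall. It measured 11.3, 8.93 and 13.04 RPKM early and 13.8, 15.5 and 15.5 late (log2 0.43, limma adjusted p = 0.143). TAGLN, the actin-binding protein transgelin, measured 37.7, 24.2 and 35.5 RPKM early and 14.5, 9.26 and 3.99 late (log2 -1.90 ± 0.37, limma adjusted p = 0.0217). TPM2, beta-tropomyosin, measured 1342, 1140 and 1868 RPKM early and 642, 436 and 427 late (log2 -1.53 ± 0.23, limma adjusted p = 0.0138). TPM1 and the caldesmon gene CALD1 fell by 0.82 and 0.74 on the log2 scale (limma adjusted p = 0.0489 and 0.0312). The fifth, CDH2 or N-cadherin, lay outside the naming rule and had 93.3, 103.6 and 80.0 RPKM early and 67.7, 53.5 and 48.7 late (log2 -0.71 ± 0.18, limma adjusted p = 0.0408). It was higher than CDH1 in each of the 6 libraries, by a margin that was smallest at 72 h. The 2 risen genes were matrix genes. FN1, fibronectin, measured 125, 117 and 69.2 RPKM early and 152, 263 and 263 late (log2 1.12 ± 0.28, limma adjusted p = 0.0368), and SPARC, a matrix glycoprotein, 10.6, 9.87 and 9.51 early and 16.2, 17.1 and 16.2 late (log2 0.70 ± 0.15, limma adjusted p = 0.0244). VIM, vimentin, measured 525, 510 and 461 RPKM early and 481, 503.6 and 221 late (log2 -0.40, limma adjusted p = 0.392), so that 72 h alone was low. The factors ZEB1, ZEB2, TWIST1 and SNAI1 had log2 differences of -0.06, -0.18, 0.32 and 0.03, none past the test, and SNAI2 measured 8.40, 9.62 and 7.81 RPKM early and 7.99, 5.27 and 2.63 late (log2 -0.76, limma adjusted p = 0.136).

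Of 24 collagens and matrix genes 5 rose (20.8%, against 5.82%) and 0 fell (median log2 0.50), and 19 did not pass. COL6A2, a collagen VI chain, measured 5.69, 7.06 and 8.87 RPKM early and 12.97, 19.7 and 17.0 late (log2 1.15, limma adjusted p = 0.0190). The laminin chains LAMA5 and LAMB1 and the basement membrane collagen COL4A5 rose by 1.05, 0.79 and 0.87 on the log2 scale. Of 13 proteases and inhibitors 2 rose (15.4%, against 5.82%), the urokinase PLAU (log2 1.09) and the membrane metalloprotease MMP15 (log2 1.12). Of 10 S100 calcium-binding genes 3 fell (30.0%, against 3.19%) and 1 rose (10.0%, against 5.82%). S100A11 measured 268, 552 and 449.8 RPKM early and 205, 140 and 137 late (log2 -1.36, limma adjusted p = 0.0230), and S100A10 and S100A3 fell by 1.15 and 1.01 on the log2 scale. S100P went the other way, from 0.74, 1.41 and 0.43 RPKM to 1.73, 8.51 and 9.51 (log2 2.17 ± 0.51, limma adjusted p = 0.0310). Of 10 BMP and ID genes 3 rose (30.0%, against 5.82%) and 0 fell: the ligands BMP2 and BMP4 (log2 1.16 and 0.90) and ID1, an inhibitor of basic helix-loop-helix factors, with 27.0, 56.6 and 47.9 RPKM early and 77.0, 136 and 99.5 late (log2 1.27, limma adjusted p = 0.0292).

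Among metabolic lists, sterol and fatty acid synthesis had the most rises, 8 of 24 (33.3%, against 5.82%) and 0 falls (median log2 0.46), of which 6 remained after median centring. SCD, the stearoyl-CoA desaturase, measured 88.1, 94.1 and 66.7 RPKM early and 166, 187 and 141 late (log2 0.99 ± 0.19, limma adjusted p = 0.0210). DHCR7, the last enzyme of cholesterol synthesis, measured 8.80, 8.35 and 5.98 RPKM early and 14.7, 20.7 and 14.8 late (log2 1.07 ± 0.20, limma adjusted p = 0.0210). STARD4 and MSMO1 rose by 0.96 and 0.93 on the log2 scale. These genes were highest at 48 h and lower again at 72 h, and the list's median against 3 h was -0.31 at 12 h, 0.38 at 24 h, 0.46 at 48 h and 0.31 at 72 h. The SREBP letters TCACNCCAC were in 0 of the 18 promoters found, beside 1.09% of the 27305 genes with a RefSeq promoter. Of 21 lysosome and autophagy genes 5 rose (23.8%, against 5.82%), led by the cholesterol exporter NPC1 and the protease CTSB (log2 1.01 and 0.90), and 1 fell (GLA, log2 -0.66; 4.76%, against 3.19%). After median centring 1 rose and 2 fell.

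In the remaining lists few members passed, and their counts are read against the 5.82% of all tested genes that rose and the 3.19% that fell. ENO1, a glycolytic enolase, fell from 660.3, 632 and 535 RPKM to 451, 343 and 336 (log2 -0.70, limma adjusted p = 0.0416) while the aldolase ALDOC rose (log2 1.53), the only 2 calls among 27 hypoxia and glycolysis genes (3.7% in each direction). Of 25 ATF4 and amino acid response genes 2 fell (8.0%), the factor ATF5 and the transporter subunit SLC3A2 (log2 -1.18 and -1.0), and 0 rose. Of 19 genes for chaperones and stress factors of the endoplasmic reticulum 15.8% rose, namely DNAJB9, XBP1 and CRELD1 (log2 1.25, 1.0 and 0.85), and CALR, calreticulin, fell from 853, 794 and 1114 RPKM to 558, 370.0 and 544 (log2 -0.92, limma adjusted p = 0.0311). Of 20 ribosome biogenesis genes 2 fell (10.0%), NOP56 and PES1 (log2 -0.97 and -0.90), and of 79 ribosomal protein genes RPS26 fell (log2 -1.09) and RPL17 rose (0.69), with a median of -0.10 that was 0.08 after quantile normalization. The clock genes HLF and PER3 rose by 1.45 and 0.97 on the log2 scale, and the snoRNA host GAS5, whose transcript builds up when growth stops, by 1.14. None of the 15 heat shock, 10 iron handling, 6 MHC class I or 5 metallothionein and zinc genes tested passed in either direction.

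The order of the 6 times was not even. On the log2(RPKM + 0.5) scale, 100 genes were at least 2-fold higher and 40 at least 2-fold lower at 6 than at 3 h (0.825% and 0.330% of 12114), and 51 and 69 at 12 than at 6 h (0.421% and 0.570%). From 12 to 24 h 406 were higher and 98 lower (3.35% and 0.809%), and from 24 to 48 h 180 and 317 (1.49% and 2.62%). From 48 to 72 h the counts were 104 and 84 (0.859% and 0.693%). The steps from 12 to 48 h thus held the most genes. The balance at 12 to 24 h depended on scaling: the median step there was 0.20 over all genes, and after median centring 141 genes were higher and 272 lower, while 24 to 48 h gave 245 and 226. The median step of the 705 risen genes was 0.72 from 12 to 24 h and 0.40 from 24 to 48 h, and that of the 387 fallen genes -0.62 and -0.72. From 48 to 72 h both medians were close to 0 (-0.07 and -0.05).

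**Figure D2:**
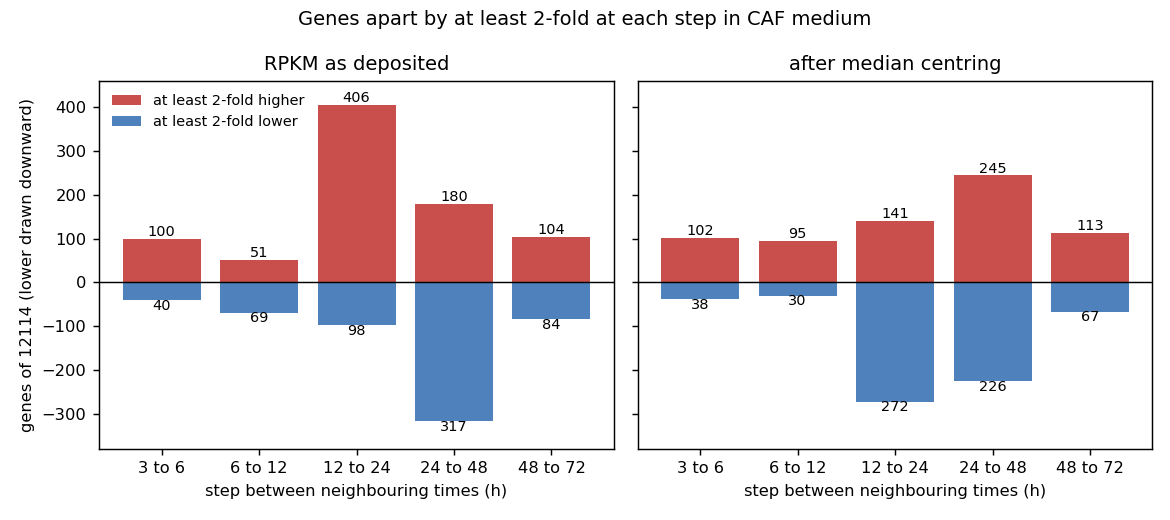
Number of genes at least 2-fold higher (up) or lower (down) at each step between neighbouring times in CAF medium, of 12114 genes, in the RPKM as deposited (left) and after each library's log2 values were centred on their median (right). The 2 steps between 12 and 48 h hold the most genes in both panels, and at 12 to 24 h the higher genes outnumber the lower ones (406 and 98) on the left and not on the right (141 and 272).

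Of the distance between the early mean and the mean of 48 and 72 h, the risen genes had covered a median of 66.8% at 24 h (quartiles 54.0 and 83.5%) and the fallen genes 46.5% (34.8 and 61%), values that carry the 24 h library's shift of all genes. The highest level lay at 48 h in 394 of the risen genes, at 72 h in 284 and at 24 h in 27. The lowest level lay at 72 h in 215 of the fallen genes, at 48 h in 165 and at 24 h in 7. Levels went one way at every one of the 5 steps in 85 risen and 67 fallen genes. A slope on log2 of the hours called 843 rises (6.96%) and 632 falls (5.22%) by limma at the same threshold. It called 517 of the 705 and 315 of the 387 in the same direction, and 643 genes that the contrast of periods did not call.

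Some genes stood out at a single time, which has 1 library and no test. At 3 h HMOX1, heme oxygenase, measured 22.9 RPKM and 4.36 to 8.49 at the other times, and SLC7A5, an amino acid transporter, 108 RPKM and 26.1 to 43.0 elsewhere. At 6 h MT2A, a metallothionein, measured 2214 RPKM and 405 to 1162 elsewhere. CCDC34 was at 104 RPKM at 12 h and 21.4 to 53.4 elsewhere. The largest gaps were at 48 h: INHBA, a subunit of activin, measured 72.3 RPKM there and 7.12 to 22.1 elsewhere, and GDF15, a stress-induced TGF-beta family member, 129 RPKM there, 45.0 at 72 h and 9.85 to 19.7 before. At 72 h CHGB, a granin of secretory vesicles, measured 78.5 RPKM after 30.3 at 48 h and 6.38 to 10.6 before, and UGT1A8, which shares exons with other UGT1A genes, 46.8 RPKM and 4.77 to 18.1 elsewhere. Genes at least 2-fold above every other time numbered 5 at 3 h, 0 at 6 h, 1 at 12 h, 1 at 24 h, 29 at 48 h and 34 at 72 h.

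The same contrast in the 6 control medium libraries of the series is given for comparison. In control medium 0 of 12114 genes passed (limma, smallest adjusted p = 0.0651), with 3750 at an unadjusted p under 0.05 and a median difference of 0.14. Of the genes called in CAF medium, 695 of 705 rises and 371 of 387 falls had the same sign in control medium. The share of all tested genes with the same sign is not given here. The counts are therefore not read as particular to the called genes. The median log2 difference of the rises was 0.96 in CAF and 0.68 in control medium, and that of the falls -1.09 and -0.48. Over all tested genes the differences in both media correlated at r = 0.708, with genes not independent and depth shared by both series of times. TXNIP had log2 differences of 3.20 and 3.10 in CAF and control medium, and the test of the difference between them gave a limma adjusted p of 0.958.

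The difference between media in late minus early was itself tested, each CAF library beside the control library of its time. By limma 6 genes were higher (0.0495% of 12114) and 37 lower (0.305%) in CAF medium. Of the 37, 10 were in the mitosis list, whose median was -1.50 in CAF and -0.30 in control medium, and 1 was in the replication list (-1.27 and -0.54). The NF-kB and cytokine list had 2 of the 6, with medians of 1.10 and 0.09. IL6 measured 4.16, 2.26 and 2.54 RPKM early and 2.34, 4.70 and 3.49 late in control medium, without separation, and in CAF medium it was below these early values at 3, 6 and 12 h and above the late ones at 48 and 72 h. The difference between media was 2.35 ± 0.38 on the log2 scale (limma adjusted p = 0.0376). CDC25C, a phosphatase that starts mitosis, measured 6.80, 5.98 and 6.72 RPKM early and 8.52, 7.56 and 5.58 late in control medium, against 10.6, 11.8 and 15.95 early and 6.75, 3.93 and 2.03 late in CAF medium (difference -1.72 ± 0.26, limma adjusted p = 0.0376). MYBL2 measured 51.1, 53.7 and 46.2 RPKM early and 49.1, 26.3 and 12.9 late in control medium (difference -1.75 ± 0.27, limma adjusted p = 0.0376), so that it was also low at 72 h there. These calls were not stable: with no term for time 0 genes passed (smallest limma adjusted p = 0.358, 821 at an unadjusted p under 0.05), without both 3, 6, 12 or 48 h libraries 0, without 72 h 3 and without 24 h 240.

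**Figure D3:**
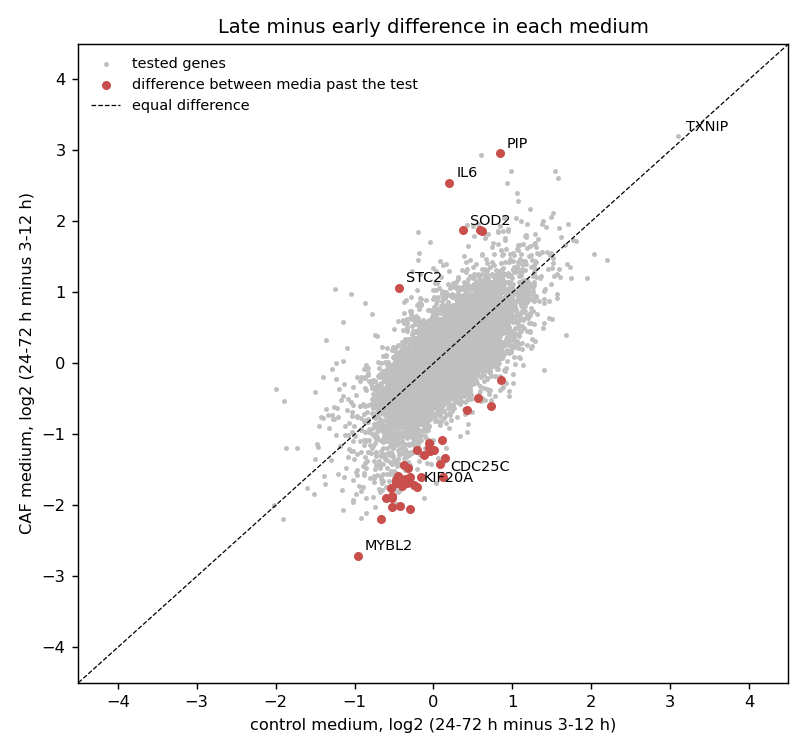
Late minus early log2 difference in CAF medium (vertical axis) against that in control medium (horizontal axis) for the 12114 tested genes, with the line of equal difference. Red points are the 43 genes whose difference between media passed the limma test. TXNIP lies on the line at 3.10 and 3.20, whereas IL6 (0.20 and 2.55) lies above it and CDC25C (0.12 and -1.59) below it.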

How the data were processed

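Polyadenylated RNA of A549 cells in CAF medium was measured at 6 times in directional libraries. The values are RPKM, which the authors deposited beside gene model lengths. TopHat2, edgeR and the build hg19 are named per the submitters' processing notes, without versions. Not given in the sources used here were the read counting, the use of strand, the annotation and the merging of replicates, so antisense, overlapping and near-identical genes (histones, ribosomal proteins, tubulins) are uncertain. Groups and times came from the labels, and 0 value columns were without a sample.

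Depth was recovered from gene models under 400 bases, where 100% of 50 to 92 low values per CAF library came to whole reads within 0.1 read. RPKM times length summed to 96.6 to 97.5% of those reads. At that depth 1 read in a gene model of 1 kb is worth 0.0247 to 0.0378 RPKM. RPKM are not counts, so log2(RPKM + 0.5) was tested with limma 3.58.1 in R 4.3.3 (lmFit, eBayes with a mean-variance trend, two-sided), adjusted by Benjamini-Hochberg over all 12114 genes at 0.05. Fits were late against early (4 residual degrees of freedom), a slope on log2 hours (4), and the difference between media with time as a factor (4, 12 libraries). The added 0.5 understates changes of low genes. The fits were tested on simulated data.

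Pseudocount, filter, scaling, trend, source of the spread, short gene models and each time left out were varied. The genes, lists, motifs and tests were chosen with earlier results of these data known. Lists were only counted. Named were the 14 largest rises and falls with no overlap and gene models of at least 400 bases, at most 4 called members per list and direction, the 2 genes with the widest gap at each time, and the 5 largest differences between media in each direction. Named outside this rule, after their values were seen, were the 4 NF-kB genes, FOXM1, CDH2, ACTA2 and the genes shown with promoters. Small RNA libraries were not used here, and 1 member of a list is not reported by name.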

Additional observations from a re-analysis of the deposited data

Results flagged for a closer look

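The change from early to late differed between CAF and control medium for 43 genes, by a limma test of the difference itself (Benjamini-Hochberg adjusted over 12114 genes), and this test of the difference is what singled them out. The values that follow are log2 differences, CAF minus control, of late minus early. Higher in CAF medium were the cytokine gene IL6 (2.35 ± 0.38, SE), the secreted protein gene PIP (2.12 ± 0.29), the glycoprotein hormone gene STC2 (1.50 ± 0.25), SOD2 (1.50 ± 0.25) and BC016015 (1.28 ± 0.20). Their limma adjusted p-values were 0.0376 for IL6, PIP and BC016015 and 0.0395 for STC2 and SOD2. STC2 measured 6.94, 6.87 and 4.20 RPKM early and 7.66, 19.97 and 13.6 late in CAF medium, and 15.4, 13.8 and 5.77 early and 6.39, 9.61 and 7.71 late in control medium, where early and late values overlapped. The late minus early difference of STC2 did not pass in either medium alone.

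Lower in CAF medium were genes of cell division: MYBL2 (-1.75 ± 0.27), C2orf48 at the RRM2 locus (-1.75 ± 0.23), CDC25C (-1.72 ± 0.26), SPC25 (-1.60 ± 0.26), KIF20A (-1.53 ± 0.21), NCAPG (-1.53 ± 0.22), SHCBP1 (-1.50 ± 0.24) and NDC80 (-1.30 ± 0.19), each at a limma adjusted p of 0.0376, and BIRC5 (-1.37 ± 0.25) at 0.0471. KIF20A measured 19.7, 19.7 and 19.9 RPKM early and 25.4, 18.1 and 10.7 late in control medium. Without a term for time none of these passed.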

How the results depend on the processing

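The late minus early contrast called 1092 genes (705 rose, 387 fell). Without a filter on low values it called 0 (0 rose, 0 fell), and with the spread taken from all 12 mRNA libraries 1801 (1101 rose, 700 fell). Rises numbered 431 with a mean of at least 5 RPKM, 456 after median centring, 425 after quantile normalization and 1193 after rescaling to the same sum, and falls 619 after median centring. With 1 library left out the total ran from 0 to 2167, rises from 0 to 1180 and falls from 0 to 987. The slope called 1475 genes, 152 without a filter, 868 where the mean reached 5 RPKM and 500 to 2198 with 1 library left out. The difference between media called 43 genes, 0 without a filter, 66 after quantile normalization, 0 with no replicate block of time and 0 to 240 with 1 time left out. No direction was reversed under the alternatives run, which shows no stability where the choice of genes fixes the sign, as with 1 library left out of periods that do not overlap. Of 113 genes named from the contrast of periods 93 kept their call after median centring, 89 after quantile normalization and 108 with a pseudocount of 0.1. Without a filter 22026 genes were tested. The cause of the other moves was not tested. Pairing CAF and control libraries by time is the replicate block of the fit between media; within CAF medium alone no paired analysis was possible because each time has 1 library and the labels give no replicate numbers. Depth rose with period, and genes near 1 RPKM with short models rest on few reads.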

Other observations

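Values of further genes called between the early and late CAF medium libraries follow, by the same limma test, under which 5.82% of all tested genes rose and 3.19% fell. Of 6 tested genes of mucins and secretory lung 2 rose (33.3%). AGR2, a protein disulfide isomerase of mucus-producing cells, measured 5.35, 6.88 and 5.64 RPKM early and 12.5, 10.2 and 16.95 late (log2 1.06, limma adjusted p = 0.0211), and MUC13, a membrane mucin, 7.67, 7.32 and 7.58 early and 9.71, 15.9 and 20.1 late (log2 0.91, limma adjusted p = 0.0416). Of 25 NRF2 targets and NADPH genes 2 rose (8.0%) and 1 fell (4.0%), shares near those of all tested genes. ABCC3, an exporter of conjugated drugs and bile salts, measured 76.1, 69.5 and 82.2 RPKM early and 112, 139 and 195 late (log2 0.93, limma adjusted p = 0.0283), while its log2 difference in control medium was 0.06. TKT and TALDO1, neighbouring enzymes of the pentose phosphate pathway, went in opposite directions (log2 0.65 and -0.73, limma adjusted p = 0.0477 and 0.0349). ALDH2, the mitochondrial aldehyde dehydrogenase, was the only one of 13 aldehyde dehydrogenases past the test (7.69%), with 52.4, 60.7 and 50.8 RPKM early and 84.7, 116 and 128 late (log2 0.98, limma adjusted p = 0.0212).

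In other lists 1 or 2 members passed, and the share of each list stands beside the 5.82% of all tested genes that rose and the 3.19% that fell, so these are values of single genes and not of the lists. The receptor NOTCH3 and its feedback gene NRARP rose by 0.86 and 0.67 on the log2 scale, 2 of 11 Notch and HES genes (18.2%). TGFBR2, a TGF-beta receptor, rose by 0.75, the only call among 19 TGF-beta targets (5.26%), and the kinase NUAK2 by 0.89, the only call among 18 YAP and TEAD targets (5.56%). ACSL1, which activates fatty acids, rose by 1.0 on the log2 scale and UQCRC2, of respiratory complex III, by 0.58, each alone in its list (14 and 24 genes, 7.14 and 4.17%). Of 15 gene models on the mitochondrial chromosome 2 fell (13.3%), JA429830 (log2 -1.83) and DQ582201 (log2 -1.76).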
